A study of Mus musculus with 9 samples.

Results

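The constitutive proteasome genes were examined in mouse livers of 3 kinds: kept without microbes (GF, germ-free), germ-free with short-chain fatty acids in the water (GF+SCFA), and colonised with a full gut microbiota (ConvD, conventionalised). The members are every gene whose symbol starts with Psma, Psmb, Psmc, Psmd, Psme, Psmf or Psmg followed by a digit, without the immunoproteasome subunits Psmb8, Psmb9 and Psmb10. The rule matched 46 of 20325 genes and used no measured value, though it was chosen with earlier results of these data known. They divide into 16 genes of the core particle, 17 of the cap, 5 activators and inhibitors, 7 assembly chaperones and 1 gene matched by name alone. That gene is Psmc3ip, a partner of the meiotic recombinases and not a proteasome subunit, which had between 2 and 8 expected counts per liver and did not pass the filter on low counts. The other 45 members did.

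The proteasome is the large protease that degrades ubiquitin-tagged proteins in the cytosol and nucleus of nearly every cell. Its core particle is a barrel of alpha rings, which form the gate, and beta rings, which carry the active sites. The cap, or regulatory particle, binds ubiquitin chains, removes them and unfolds the substrate with a ring of ATPases. Other activators, the PA28 proteins and PA200, dock on the same alpha rings without ubiquitin. Dedicated chaperones build the core and the base of the cap and leave before or as the particle is finished. In liver, with its high protein turnover, constitutive subunits dominate in hepatocytes, and interferons induce an alternative set of catalytic subunits together with PA28.

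All animals were male C57BL/6J mice on autoclaved, irradiated chow, with 3 livers in each of the 3 groups. GF mice stayed germ-free and drank plain water. GF+SCFA mice also stayed germ-free, and their filter-sterilised water held 67.5 mM acetate, 25.9 mM propionate and 40 mM butyrate, for a time not given in the sources used here. ConvD mice were born germ-free and received cecal contents of conventionally raised C57BL/6J donors by a single gavage at 15 weeks of age, then lived 4 weeks in sealed cages. The growth protocol puts dissection at 19 weeks, whereas the series design gives an age of 14 weeks. Mice were housed together by colonisation status, so cage and group cannot be told apart, and the labels do not tie a liver to a cage. The design text calls the 3 livers of a group biological replicates, and p-values measure the spread between them.

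RNA was taken from whole liver, in which fewer cells of a type and less RNA per cell cannot be told apart. The libraries held 18193071 to 21627696 expected counts, and the 10 most abundant genes took 20.9% to 23.3% of them. Alb, the defining hepatocyte product, was at 70653 to 100780 CPM (counts scaled for library size) in the 9 livers. Over 12037 genes tested, edgeR's quasi-likelihood test with Benjamini-Hochberg adjustment called 1544 genes between ConvD and GF livers, 5 between GF+SCFA and GF livers and 2216 between ConvD and GF+SCFA livers, at an adjusted p under 0.05. Of the calls between ConvD and GF livers, 46.2% were higher in ConvD livers with the trimmed-mean scaling used here, 66.1% with upper-quartile factors and 73.1% with library totals. For ConvD against GF+SCFA livers these shares were 51.3%, 66.8% and 72.4%. CPM values below are scaled by the trimmed mean, and values listed for a group are in the order of replicates 1, 2 and 3.

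By class median, transcript levels followed the place of the subunit in the particle. Per length, as TPM (transcript abundance scaled for transcript length and library, mean of 9 livers), the core alpha genes had a median of 123 TPM and the core beta genes a median of 137 TPM. The ring of cap ATPases had a median of 74.6 TPM and the other cap subunits 59.8 TPM. Activators and inhibitors had a median of 36.7 TPM and assembly chaperones 18.8 TPM. These medians leave out Psma8, the testis form of an alpha subunit, at 0.782 TPM, and Psmb11, the thymus-specific beta subunit, at 0.549 TPM.

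Within a ring the levels were close together, though not only there. The other cap subunits ranged 2.22-fold and the assembly chaperones 2.56-fold. The 7 alpha genes of the liver particle ranged 2.18-fold, from 78 TPM for Psma5 to 170 TPM for Psma4. The 7 beta genes ranged 1.90-fold, from 107 TPM for Psmb2 to 204 TPM for Psmb7, which carries the trypsin-like site. The 6 ATPases ranged 1.89-fold, from 58.7 TPM for Psmc2 to 111 TPM for Psmc1. The activator class was the widest at 11.2-fold, since it held both the PA28 pair, with Psme2 at 135 TPM and Psme1 at 120 TPM, and the proteasome inhibitor PI31, encoded by Psmf1, at 12.0 TPM. Among chaperones Psmd10, or gankyrin, was lowest at 9.07 TPM and Psmg1 highest at 23.2 TPM. Members made up 0.359% of all transcripts by summed TPM.

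**Figure D1:**
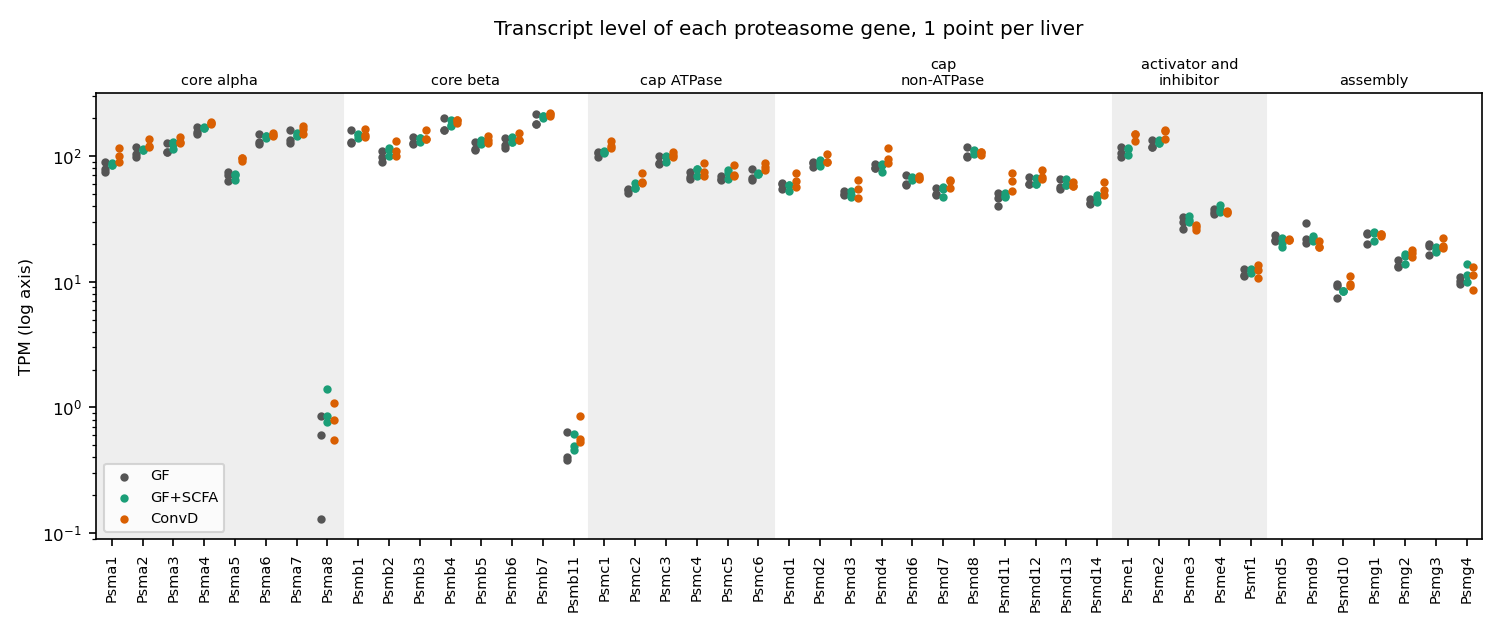
Each point is the TPM of a gene in 1 liver, on a log axis, with the genes on the horizontal axis ordered by class and coloured by group (GF, GF+SCFA, ConvD). Apart from Psma8 and Psmb11, core genes have the highest class medians and assembly chaperones the lowest. Neighbouring classes overlap, with Psme1 and Psme2 among the core genes and Psmf1 among the chaperones. Within a gene the 3 groups mostly overlap.

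The members varied little from liver to liver. Over the 9 livers the median coefficient of variation of CPM, groups together, was 6.33% for the 43 members other than Psma8, Psmb11 and Psmc3ip. It was 9.04% over the 4116 tested genes with a mean of 20 to 200 CPM and 12.9% over all tested genes. Psmd6, a lid subunit, varied least at 4.30%. Psmd11 varied most at 15.2%, followed by Psma5 at 14.5%, Psmg4 at 14.4%, Psmd9 at 13.2% and Psme1 at 12.7%. The ratio of summed core TPM to summed cap TPM was 1.53 ± 0.050 (SD, n = 3) in GF livers, 1.57 ± 0.050 in GF+SCFA livers and 1.55 ± 0.054 in ConvD livers, and the 3 groups overlapped.

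Between ConvD and GF livers, Psma1 and Psma5 of the core, Psmd11 and Psmd14 of the cap and the activator Psme1 rose in ConvD livers by 1.19-fold to 1.32-fold, and the assembly chaperone Psmd9 fell. These 6 genes are 13.3% of the 45 members tested, against 12.8% of all genes, so the share of members called was near the background. The 5 higher members stand against 5.93% of all genes called higher, and the 1 lower member against 6.9% called lower. The other 39 members did not pass the test. An unadjusted p under 0.05 was reached by 15 of 45 members and by 3437 of 12037 genes. The log2 fold change was above 0 for 38 of 45 members, with a median of 0.10 (quartiles 0.05 and 0.18), against a median of 0.00 (quartiles -0.15 and 0.19) over all genes. Groups did not overlap for 18 members that were higher in ConvD livers and 3 that were lower, where the same held for 15.7% and 15.9% of all genes.

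In the core, the alpha subunits Psma1 and Psma5 rose and the other 14 members did not pass the test. Psma5 encodes the alpha-ring subunit alpha5. It was at 49.1, 58.9 and 49.7 CPM in GF livers, 55.3, 53.6 and 50.1 CPM in GF+SCFA livers and 66.0, 70.4 and 68.2 CPM in ConvD livers. Every ConvD liver lay above all 6 germ-free livers. The log2 fold change against GF livers was 0.38 (SE 0.079, adjusted p = 0.00851), a 1.30-fold increase, and it passed the test in each of the 9 fits that left out 1 liver.

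Psma1 encodes the alpha-ring subunit alpha6. It was at 62.3, 61.1 and 65.5 CPM in GF livers, 71.3, 65.4 and 67.1 CPM in GF+SCFA livers and 81.8, 74.4 and 69.3 CPM in ConvD livers. ConvD and GF livers did not overlap, and the GF+SCFA livers lay between and partly within both. Its log2 fold change was 0.26 (SE 0.073, adjusted p = 0.035). The call was lost in 5 of 9 fits: the adjusted p was 0.098 without GF replicate 1, 0.102 without GF replicate 2, 0.0525 without GF+SCFA replicate 3, 0.146 without ConvD replicate 1 and 0.0774 without ConvD replicate 2. It was also lost with the 2 groups alone (adjusted p = 0.0651).

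No beta subunit passed the test. The 3 catalytic subunits are Psmb5, with the chymotrypsin-like site, Psmb6, with the caspase-like site, and Psmb7, with the trypsin-like site. Psmb5 was at 59.2, 62.4 and 63.6 CPM in GF livers, 67.1, 69.1 and 67.6 CPM in GF+SCFA livers and 67.8, 63.9 and 70.5 CPM in ConvD livers. All 6 livers of the latter groups lay above the GF livers, by a small margin. The 95% interval of the log2 fold change between ConvD and GF livers ran from -0.01 to 0.27 for Psmb5 (estimate 0.13, adjusted p = 0.215), from -0.05 to 0.23 for Psmb6 and from -0.04 to 0.24 for Psmb7 (estimate 0.10, adjusted p = 0.322). These intervals hold both no difference and a rise of the size estimated for the alpha subunits as a group, whose median log2 fold change was 0.17.

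All 16 core genes had a log2 fold change above 0 under trimmed-mean, upper-quartile, library-total and DESeq2 scaling, and all 16 lay above the median of all genes under each. The core median was 0.13 with the trimmed mean and with DESeq2, 0.19 with upper-quartile factors and 0.21 with library totals, where the median of all genes was 0.00, 0.00, 0.06 and 0.08. Summed core CPM was 1045, 1091 and 1128 in GF livers and 1203, 1171 and 1208 in ConvD livers, and these groups did not overlap. On the TPM scale, which the trimmed mean does not adjust, the core summed to 1671, 1700 and 1983 in GF livers and 2168, 1979.8 and 1971 in ConvD livers. There GF replicate 3 overlapped the ConvD livers.

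**Figure D2:**
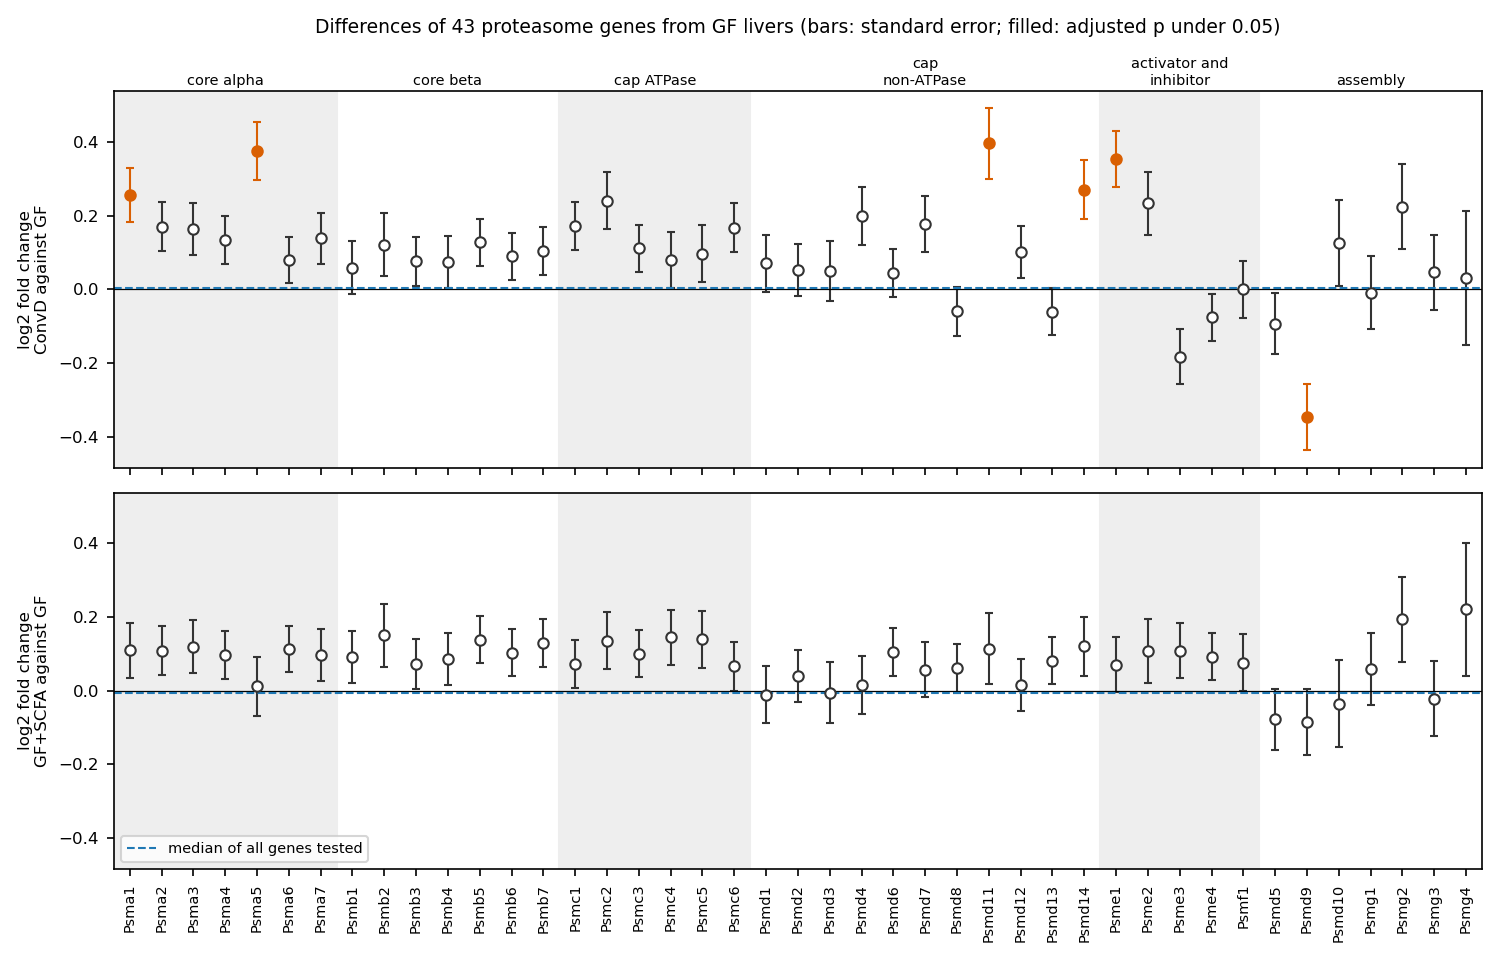
Log2 fold changes of 43 members (without Psma8, Psmb11 and Psmc3ip) against GF livers, for ConvD livers above and GF+SCFA livers below, with standard errors as bars and an adjusted p under 0.05 as filled points. Most points lie between 0 and 0.2 in both panels, which share the same GF livers, and the dashed line at the median of all genes lies at 0.

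In the cap, Psmd11 and Psmd14 rose and the other 15 genes did not pass the test. Psmd11, or Rpn6, is the lid subunit that clamps the cap to the core. It was at 44.9, 54.1 and 52.2 CPM in GF livers, 57.8, 51.8 and 54.2 CPM in GF+SCFA livers and 73.8, 67.6 and 57.6 CPM in ConvD livers. ConvD livers lay above the GF livers, and the lowest of them, replicate 3, lay within the GF+SCFA livers. The log2 fold change against GF livers was 0.40 (SE 0.095, adjusted p = 0.0161), or 1.32-fold. The adjusted p was 0.0722 without GF replicate 1, 0.0716 without ConvD replicate 1 and 0.0555 without ConvD replicate 2.

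Psmd14, or Rpn11, is the lid enzyme that cuts ubiquitin chains from the substrate. It was at 41.1, 43.3 and 41.1 CPM in GF livers, 49.3, 44.9 and 42.4 CPM in GF+SCFA livers and 54.1, 45.9 and 51.5 CPM in ConvD livers. ConvD and GF livers did not overlap. Its log2 fold change was 0.27 (SE 0.080, adjusted p = 0.0403). It did not pass with DESeq2 (adjusted p = 0.0506), with the 2 groups alone (adjusted p = 0.0591) or in 6 of the 9 fits without 1 liver, with an adjusted p of 0.113, 0.064 and 0.0826 without GF replicates 1, 2 and 3, 0.055 without GF+SCFA replicate 2, and 0.152 and 0.0828 without ConvD replicates 1 and 3.

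Among the 6 ATPases the smallest adjusted p-values were those of Psmc2 (log2 fold change 0.24, SE 0.077, adjusted p = 0.0542) and Psmc1 (0.17, SE 0.065, adjusted p = 0.0986). Psmc2, or Rpt1, was at 58.1, 64.9 and 56.4 CPM in GF livers, 70.5, 62.5 and 64.2 CPM in GF+SCFA livers and 75.1, 67.9 and 68.9 CPM in ConvD livers. ConvD livers lay above the GF livers, and without GF replicate 2 the adjusted p was 0.0367. Both ATPases passed with upper-quartile factors (adjusted p = 0.0225 for Psmc2 and 0.0324 for Psmc1) and with library totals (adjusted p = 0.0146 and 0.0269). Log2 fold changes were above 0 for 15 of 17 cap genes, with a median of 0.10. The exceptions were the lid subunits Psmd8 and Psmd13, both at -0.06, whose sign turned with library totals (0.02 each).

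The activators went apart. Psme1 and Psme2 encode the alpha and beta chains of the cytosolic PA28 ring, which interferon-gamma induces and which favours the release of antigenic peptides. Psme1 was at 63.6, 61.0 and 65.7 CPM in GF livers, 70.6, 59.7 and 69.7 CPM in GF+SCFA livers and 80.3, 85.0 and 77.9 CPM in ConvD livers. Every ConvD liver lay above all germ-free livers. The log2 fold change against GF livers was 0.35 (SE 0.075, adjusted p = 0.00904), or 1.28-fold, and it passed in each of the 9 fits without 1 liver. Psme2 was at 60.9, 64.3 and 65.4 CPM in GF livers, 67.8, 65.4 and 72.1 CPM in GF+SCFA livers and 64.0, 78.3 and 81.8 CPM in ConvD livers. ConvD replicate 1 lay within the GF livers, the log2 fold change was 0.23 (SE 0.086, adjusted p = 0.0902), and without that liver it was 0.33 (adjusted p = 0.0183). Psme2 also passed with upper-quartile factors (adjusted p = 0.0354) and with library totals (adjusted p = 0.0311).

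Psme3 encodes PA28-gamma, the nuclear member of the family, which interferon does not induce. It was at 51.0, 46.9 and 51.0 CPM in GF livers, 53.4, 50 and 57.2 CPM in GF+SCFA livers and 41.6, 45.9 and 43.5 CPM in ConvD livers. ConvD livers lay below all 6 germ-free livers. Against GF livers its log2 fold change was -0.18 (SE 0.074, adjusted p = 0.118), which did not pass the test. The ratio of Psme1 to Psme3 in TPM was 3.54, 3.69 and 3.65 in GF livers, 3.75, 3.39 and 3.46 in GF+SCFA livers and 5.47, 5.24 and 5.08 in ConvD livers, without overlap. With 3 livers against 3 an exact permutation test of such a ratio cannot go below p = 0.1, so none was run. Psme4, which encodes PA200, had a log2 fold change of -0.08 (adjusted p = 0.464) and Psmf1 one of 0.00 (adjusted p = 0.999). The sign of Psme4 turned with library totals and that of Psmf1 with DESeq2.

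Of the 7 assembly chaperones, Psmd9 fell and the other 6 did not pass the test. Psmd9, or p27, guides the ATPases into the base of the cap and is not part of the finished particle. It was at 37.5, 35.6 and 45.9 CPM in GF livers, 36.3, 36.7 and 39.2 CPM in GF+SCFA livers and 31.5, 30.4 and 31.6 CPM in ConvD livers. ConvD livers lay below all 6 germ-free livers, and GF replicate 3 lay above the others. Psmd9 had a log2 fold change of -0.35 (SE 0.0905, adjusted p = 0.0231), and -0.23 without GF replicate 3 (adjusted p = 0.0796). The call was also lost without ConvD replicate 1 (adjusted p = 0.0585) or 2 (0.0804), with upper-quartile factors (0.0503) and with library totals (0.105). The exons of Psmd9 share 1849 bases with Gm26745, a lincRNA on the opposite strand in the GENCODE annotation, and the strand setting of the counting is not given in the sources used here. Psmg2, a chaperone that starts the alpha ring together with Psmg1, had a log2 fold change of 0.22 (SE 0.115, adjusted p = 0.217).

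**Figure D3:**
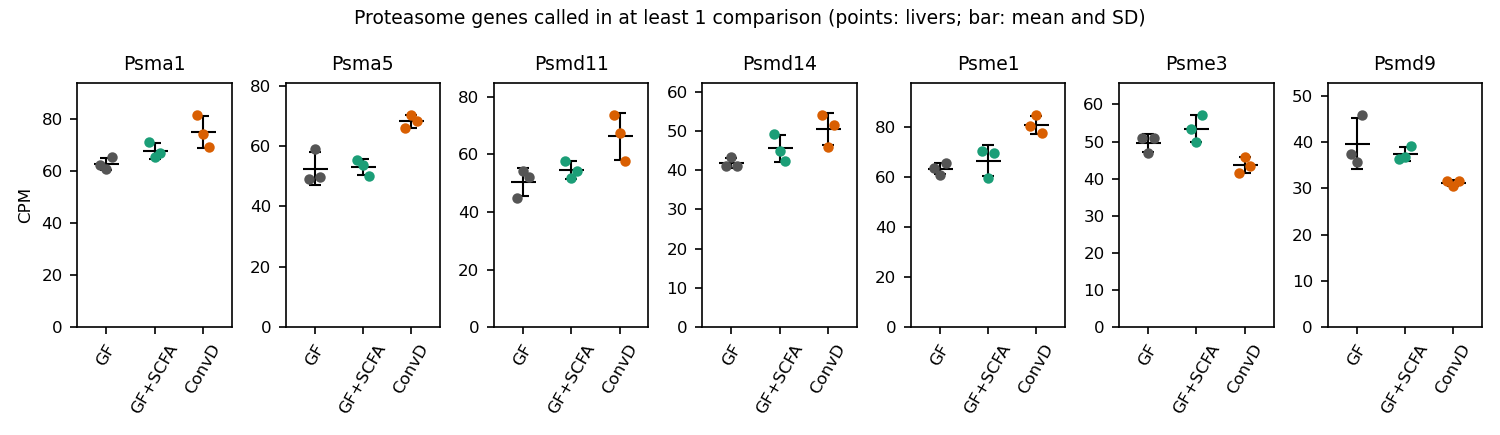
CPM of the 7 members that passed the test in at least 1 comparison, with 1 point per liver by group and the mean and SD as bars, on axes that start at 0. Psma5 and Psme1 were higher in each ConvD liver than in every germ-free liver, and Psme3 and Psmd9 lower.

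Between GF+SCFA and GF livers no member passed the test. The count was 0 of 45 with edgeR and with DESeq2, against 0.0415% of all genes with edgeR. An unadjusted p under 0.05 was reached with edgeR by 1477 of 12037 genes and by 1 member, Psmb5. The smallest adjusted p of a member was that of Psmb5 (log2 fold change 0.14, SE 0.065, adjusted p = 0.406). Next in the core came Psma8 (0.98, SE 0.461, adjusted p = 0.418), which rested on 3 to 28 expected counts per liver, then Psmb7 (0.13, adjusted p = 0.443) and Psma6 (0.11, adjusted p = 0.498). In the cap, the ATPases Psmc4 and Psmc5 were at 0.15 (adjusted p = 0.457) and 0.14 (adjusted p = 0.487), and Psmd6 and Psmd14 at 0.10 (adjusted p = 0.553) and 0.12 (adjusted p = 0.577). Psme3 and Psme4 were at 0.11 (adjusted p = 0.584) and 0.09 (adjusted p = 0.587), and the chaperones Psmg2 and Psmg4 at 0.19 (adjusted p = 0.529) and 0.22 (adjusted p = 0.655).

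Log2 fold changes between GF+SCFA and GF livers were above 0 for 39 of 45 members, with a median of 0.10 against -0.01 over all genes, and for 16 of 16 core genes under each of the 4 scalings. Groups did not overlap for 11 members higher in GF+SCFA livers, where 9.06% of all genes were so, and for 0 lower members, against 8.86% of all genes. The 11 were Psma2, Psma4, Psma8, Psmb5, Psmb6, Psmb7, Psmc4, Psmd6, Psme2, Psme4 and Psmf1. Summed core CPM in the GF+SCFA livers was 1194, 1149 and 1167, above the 3 GF values given earlier. Cap CPM summed to 1236, 1317 and 1269.8 in GF livers, 1393, 1329.7 and 1278 in GF+SCFA livers and 1438, 1350.4 and 1338 in ConvD livers, so that GF and GF+SCFA livers overlapped. The comparisons of ConvD and of GF+SCFA livers with GF livers share the same 3 GF livers. The core medians of 0.13 and 0.11 therefore both depend on those livers.

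Between ConvD and GF+SCFA livers, Psma5 and Psme1 were higher in ConvD livers and Psme3 was lower. These 3 of 45 members are 6.67%, against 18.4% of all genes. An unadjusted p under 0.05 was reached by 8 of 45 members and by 3981 of 12037 genes. The background was 9.44% for genes called higher and 8.97% for genes called lower. Psma5 had a log2 fold change of 0.36 (SE 0.079, adjusted p = 0.00677), which passed in each of the 9 fits without 1 liver. Psme1 was at 0.28 (SE 0.075, adjusted p = 0.019), and its adjusted p was 0.0879 without GF+SCFA replicate 2 and 0.0716 without ConvD replicate 2. Psme3 was at -0.29 (SE 0.0745, adjusted p = 0.0154), and its adjusted p was 0.0741 without GF+SCFA replicate 3, 0.0645 without ConvD replicate 1 and 0.0827 with library totals.

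With the trimmed mean, the members as a whole showed no common direction in that comparison. The median log2 fold change was 0.01 over members and 0.01 over all genes, and 25 of 45 members were above 0. With upper-quartile factors 34 of 45 members and 13 of 17 cap genes were above 0, and with library totals 37 and 15. The median of all genes was then 0.06 and 0.08. With each scaling, 24 of 45 members lay above that median. Class counts below are with the trimmed mean unless stated, and differences between classes were not tested. In the cap 12 of 17 genes were above 0, with a median of 0.08. Among activators and inhibitors 2 of 5 were, with a median of -0.08, and among assembly chaperones 3 of 7, with -0.02. Core genes were above 0 for 8 of 16 with the trimmed mean (6 of 8 alpha and 2 of 8 beta genes). With upper-quartile factors or library totals 15 of 16 core genes were. With each scaling, 7 of the 16 lay above the median of all genes. Groups did not overlap for 5 higher members (Psma5, Psmc1, Psmd4, Psmd10 and Psme1), where 19% of all genes were so, and for 5 lower members (Psmd8, Psmd9, Psmd13, Psme3 and Psme4), where 18.9% were. Psmd11 (0.28, adjusted p = 0.0539) and Psmd9 (-0.26, adjusted p = 0.0592) lay just outside the threshold. Psmd11 passed with upper-quartile factors (adjusted p = 0.0245) and Psmd9 with the 2 groups alone (adjusted p = 0.0262). In the other classes Psma1 was at 0.15 (adjusted p = 0.181), Psmb11 at 0.22 (adjusted p = 0.575) and the beta subunit Psmb1 at -0.03 (adjusted p = 0.782), a sign that turned with upper-quartile factors and library totals. Psmc1 and Psmc6 were both at 0.10 (adjusted p = 0.31 and 0.312), the ubiquitin receptor Psmd4 at 0.18 (adjusted p = 0.122) and Psmd10 at 0.16 (adjusted p = 0.361).

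The constitutive catalytic subunits have interferon-induced counterparts that replace them in the immunoproteasome. Psmb8 replaces Psmb5, Psmb9 replaces Psmb6 and Psmb10 replaces Psmb7. Psmb9 was at 10.2, 11.6 and 11.5 CPM in GF livers, 9.87, 10.2 and 11.3 CPM in GF+SCFA livers and 16, 19.2 and 20.9 CPM in ConvD livers. It rose by 0.75 against GF livers (log2, SE 0.111, adjusted p = 0.00109), and Psmb8 rose by 0.41 (SE 0.0923, adjusted p = 0.0125; 0.051 without GF replicate 1), while Psmb10 was at 0.07 (adjusted p = 0.684). Per length, the ratio of Psmb9 to Psmb6 was 0.184 ± 0.00512 (SD, n = 3) in GF livers, 0.162 ± 0.0157 in GF+SCFA livers and 0.292 ± 0.0423 in ConvD livers. For Psmb8 to Psmb5 the ratio was 0.245 ± 0.00196, 0.234 ± 0.0200 and 0.298 ± 0.0345 in the same order. In both, each ConvD liver lay above every germ-free liver, and in all 9 livers the constitutive transcript was the more abundant. Psmb10 to Psmb7 overlapped, at 0.190 ± 0.00467, 0.172 ± 0.0191 and 0.186 ± 0.0299.

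**Figure D4:**
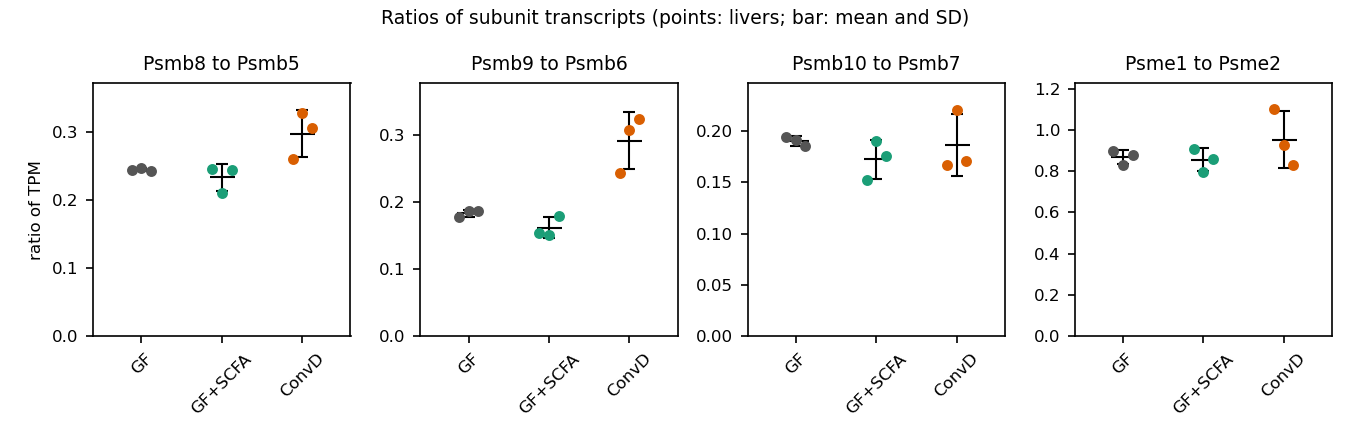
Ratios of TPM for each interferon-induced beta subunit to the constitutive one it replaces, and for Psme1 to Psme2, with 1 point per liver by group and the mean and SD as bars. Psmb8 to Psmb5 and Psmb9 to Psmb6 were higher in each ConvD liver than in every germ-free liver, whereas Psmb10 to Psmb7 and Psme1 to Psme2 overlapped between groups.

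Genes of the interferon response and markers of cell types were read beside the members. Over all genes tested, 5.93% were called higher and 6.9% lower between ConvD and GF livers. Between ConvD and GF+SCFA livers these shares were 9.44% and 8.97%. Between GF+SCFA and GF livers 0.0415% of all genes were called. Of 20 interferon-stimulated genes, 12 (60%) rose in ConvD against GF livers, with a median log2 fold change of 0.69. Between GF+SCFA and GF livers 0 passed and 3 had a log2 fold change above 0. An unadjusted p under 0.05 was reached there by 4 of the 20 and by 1477 of 12037 genes. In ConvD against GF+SCFA livers 17 (85%) rose. The smallest adjusted p against GF livers was that of Ifit3 (1.69-fold, adjusted p = 0.00134), followed by Isg15 (1.69-fold, adjusted p = 0.00152). Of 12 Kupffer cell and macrophage markers, 8 rose in ConvD against GF livers, and their summed level was 388 to 465 CPM in GF livers, 414 to 511 CPM in GF+SCFA livers and 541 to 785 CPM in ConvD livers. The Kupffer cell marker Clec4f had a mean of 70.9, 81.9 and 103 CPM in the 3 groups, in the same order. Of 8 neutrophil and monocyte markers, 3 of the 7 tested rose, with sums of 39.6 to 51.0, 39.4 to 58.4 and 52.4 to 78.5 CPM, and the granule genes Camp and Ngp were at 0 in at least 1 liver. Of 7 hepatocyte markers 1 rose and 3 fell between ConvD and GF livers. In that comparison 1 of 4 tested B and plasma cell markers rose, 1 of 6 sinusoidal endothelial markers fell, and 0 of 5 tested T and NK cell, 6 stellate, 4 biliary and 5 erythroid markers passed. In GF+SCFA against GF livers 1 stellate marker fell, Col3a1 (adjusted p = 0.0397, named after its value was seen), and no marker of the other lists passed. In ConvD against GF+SCFA livers 3 Kupffer cell and macrophage, 4 neutrophil and monocyte, 3 B and plasma cell and 3 stellate markers rose, 1 hepatocyte marker rose and 3 fell, and none of the sinusoidal endothelial, T and NK cell, biliary or erythroid markers passed. The part of these cells and of interferon in the levels of Psme1, Psma5 or the other members was not tested.

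Proteasome-linked genes whose symbols the rule does not match, Adrm1 and Shfm1 among them, were read from a list of 30. Of these, 29 were found and tested, and none is counted in the core or cap values above. Of the 29, 0 rose and 4 fell between ConvD and GF livers, and 1 rose and 4 fell between ConvD and GF+SCFA livers. Between GF+SCFA and GF livers 0 passed. An unadjusted p under 0.05 was reached there by 2 of the 29 and by 1477 of 12037 genes. With both directions together, the calls are 13.8% of the list between ConvD and GF livers, against 12.8% of all genes. Between ConvD and GF+SCFA livers they are 17.2%, against 18.4%, so both shares were near the background. By direction, 6.9% of all genes were called lower and 5.93% higher between ConvD and GF livers. The shares were 8.97% and 9.44% between ConvD and GF+SCFA livers. Log2 fold changes between ConvD and GF livers were above 0 for 12 of the 29, with a median of -0.06, against 0.00 over all genes. The 4 that fell against GF livers were Ubb, Uba6, Nploc4 and Ubqln4. Ubb, a polyubiquitin gene, was at 523, 573 and 558 CPM in GF livers, 526, 547 and 541 CPM in GF+SCFA livers and 457, 457 and 436 CPM in ConvD livers. ConvD livers lay below all germ-free livers, and Ubb fell by 0.29 against GF livers (log2, SE 0.0685, adjusted p = 0.0141; 0.075 with library totals).

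Uba6, a ubiquitin-activating enzyme, fell by 0.42 (SE 0.121, adjusted p = 0.0356), and not in 5 of the 9 fits without 1 liver, in which the adjusted p ran from 0.0556 without ConvD replicate 3 to 0.123 without GF replicate 1 (0.0635 without GF replicate 2, 0.0825 without ConvD replicate 1, 0.113 without ConvD replicate 2). The Uba6 call was also lost with upper-quartile factors (adjusted p = 0.0662), library totals (0.101), DESeq2 (0.0585), the 2 groups alone (0.0551) and a replicate block (0.0524).

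Nploc4, a cofactor of the p97 segregase that hands substrates to the proteasome, fell by 0.29 against GF livers (SE 0.0644, adjusted p = 0.0104; 0.0692 with library totals). The shuttle factor Ubqln4 fell by 0.35 (SE 0.107, adjusted p = 0.0485), and 7 of the 9 fits that omit a liver no longer called it, with an adjusted p of 0.0625 to 0.161. It was kept without GF replicate 3 and without ConvD replicate 2, and lost with upper-quartile factors (adjusted p = 0.0938), library totals (0.115) and the 2 groups alone (0.0881). Against GF+SCFA livers, Nploc4, Ubb, Ubqln4 and Zfand2a, a stress-induced proteasome adaptor, were lower in ConvD livers (adjusted p = 0.0197, 0.0185, 0.0156 and 0.0324). Each of these 4 lost the call in 2 to 5 of the fits without 1 liver, with the highest adjusted p at 0.0727, 0.0726, 0.0637 and 0.156. Nploc4 and Zfand2a also lost it with upper-quartile factors (adjusted p = 0.065 and 0.063), and Nploc4, Ubb and Zfand2a with library totals (adjusted p = 0.131, 0.1 and 0.102). Nfe2l2, or NRF2, a transcription factor of the antioxidant response, was higher by 0.41 (SE 0.107, adjusted p = 0.0175), with an adjusted p of 0.0706 and 0.0761 without GF+SCFA replicates 1 and 3 and 0.0555 without ConvD replicate 1. Nfe2l1, or NRF1, the transcription factor that raises proteasome genes together when the protease is inhibited, was at 110.0, 106 and 109 CPM in GF livers, 106, 119 and 107 CPM in GF+SCFA livers and 90.4, 98.1 and 103 CPM in ConvD livers. ConvD livers lay below the others, with a log2 fold change of -0.16 against GF livers (adjusted p = 0.157). Pomp, the maturation factor of the beta ring, was at 0.10 (adjusted p = 0.476).

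The 250 bases before the RefSeq start were searched for letters known from proteasome, stress and interferon regulation, in 38 of the 46 members that had such a window (GRCm38.p6). The windows of 4 members are shown: Psma5 and Psme1, which passed the test in both ConvD comparisons, Psmd9, which moved the other way, and Psmb5, a catalytic subunit that did not pass. They lie at chr3:108256676-108256925 (Psma5, plus strand), chr14:55578244-55578493 (Psme1, plus strand), chr5:123227940-123228189 (Psmd9, plus strand) and chr14:54617996-54618245 (Psmb5, minus strand), each written 5′ to 3′ on the strand of the gene and ending at the base before the start. Capitals mark a match to the antioxidant response core TGACNNNGC, the heat shock unit GAANNTTC or the interferon core GAAANNGAA, where N is any base. CCAAT was searched too and is not in these 4 windows.
Psma5: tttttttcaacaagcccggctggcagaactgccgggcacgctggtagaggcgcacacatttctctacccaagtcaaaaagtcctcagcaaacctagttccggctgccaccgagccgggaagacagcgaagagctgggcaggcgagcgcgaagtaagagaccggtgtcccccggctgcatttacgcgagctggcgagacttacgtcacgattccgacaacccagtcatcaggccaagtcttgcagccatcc
Psme1: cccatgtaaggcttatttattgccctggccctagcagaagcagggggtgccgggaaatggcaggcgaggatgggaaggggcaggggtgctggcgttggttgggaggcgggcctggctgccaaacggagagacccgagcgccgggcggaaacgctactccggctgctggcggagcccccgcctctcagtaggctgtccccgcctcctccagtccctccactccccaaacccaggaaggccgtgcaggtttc
Psmd9: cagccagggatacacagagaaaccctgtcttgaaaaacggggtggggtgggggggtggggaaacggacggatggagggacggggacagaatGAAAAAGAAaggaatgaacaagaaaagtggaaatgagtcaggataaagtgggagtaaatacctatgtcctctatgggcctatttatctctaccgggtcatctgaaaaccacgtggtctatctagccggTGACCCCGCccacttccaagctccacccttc
Psmb5: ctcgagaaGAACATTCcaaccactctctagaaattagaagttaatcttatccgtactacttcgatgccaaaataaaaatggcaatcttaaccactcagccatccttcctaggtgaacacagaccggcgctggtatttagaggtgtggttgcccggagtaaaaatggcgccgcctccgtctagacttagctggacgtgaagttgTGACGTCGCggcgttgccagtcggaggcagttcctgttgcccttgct

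In Psmd9 the interferon core starts 159 bases and the antioxidant response core 31 bases before the start. In Psmb5 the heat shock unit, which reads the same on both strands, starts 242 bases and the antioxidant response core 47 bases before it. The windows of Psma5 and Psme1 held none of the 4 motifs on either strand. The antioxidant response core was in 5 member windows, those of Psmb5, Psmb6, Psmc6, Psmd9 and Psmd12, or 13.2%. It was in 10.2% of all 32851 windows, and in 14% of the 8670 tested genes that had a window, counted by gene. CCAAT was in 14 member windows (36.8%, against 33.8% of all windows and 40.9% of tested genes). The heat shock unit was in 2 (5.26%, against 6.69% and 6.33%) and the interferon core in 3 (7.89%, against 7.13% and 7.68%). Each share was near that of the tested genes. The median GC content was 57.6% in member windows, 52.4% in all and 59.2% in those of tested genes. A match is a description of the letters and not a binding site.

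Some members share annotated bases with other genes, and whether their counts held reads of those genes was not tested. Exons of 7 members overlap an exon of a protein-coding gene on the opposite strand in GENCODE (Psma4, Psmb7, Psmc3, Psmc3ip, Psmd1, Psmd13 and Psme1), by 14 bases for Psme1 and Emc9, and exons of Psmd1 and Psmg3 overlap one on the same strand. Psma5 shares 60 bases with an antisense transcript. Over all genes, 46.7% of the expected counts above 0 were not whole numbers, since reads that fit several transcripts were divided.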

How the data were processed

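Liver RNA was extracted with a Qiagen kit and sequenced from stranded TruSeq mRNA libraries, per the labels' protocols. The authors aligned reads with Bowtie2 and quantified them with RSEM 1.2.23 on mm9, per the submitters' processing notes. The deposited expected counts per gene, which need not be whole, were rounded here. TPM was taken as deposited by the authors and was used for levels between genes and for ratios within a liver.

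Counts were scaled by the trimmed mean (TMM), genes were kept by filterByExpr with a minimum count of 10, and 1 model of the 3 groups over all 9 samples was fitted with edgeR 4.0.16 (quasi-likelihood, robust) in R 4.3.3. It was also run on counts simulated with the same spread for all genes, a setting simpler than these data. Residual degrees of freedom were 6 and the common biological coefficient of variation 10.6%. No 2 libraries of a group agreed within sampling noise (chi-square per degree of freedom 10.8 to 51.2). P-values were adjusted by Benjamini-Hochberg over the 12037 genes tested. Standard errors come from the fold change and its F statistic. Members, classes and lists were chosen with earlier results of these data known. Named genes are members past an adjusted p of 0.05 in any comparison, the 2 with the smallest adjusted p per class and comparison, and, of the linked genes, those past that threshold with Nfe2l1, Pomp and the immunoproteasome subunits. A gene of the linked list is not reported here. Promoter windows are RefSeq's (GRCm38.p6). Exon overlaps come from GENCODE M21, which is also GRCm38 and not the authors' mm9. No coordinates were converted. Alternatives were upper-quartile factors, library totals, DESeq2 1.42.0, no filter, the 2 groups alone, a replicate block, and each liver left out in turn.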

Additional observations from a re-analysis of the deposited data

How the results depend on the processing

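With 3 livers a group, the median standard error of a member's log2 fold change between ConvD and GF livers was 0.075, and the smallest difference called there was 0.26 (Psma1). At this precision a missed threshold does not show that a member stayed the same. Of 1005 values of named genes recomputed under the alternatives, 899 kept their direction and side of the threshold. Those that changed sign were never past the threshold. Each range given here is that over the 9 fits without 1 liver. For GF+SCFA against GF livers they were Psma5 (-0.035 without GF replicate 1 to 0.103, with -0.027 and -0.019 without GF replicate 3 and GF+SCFA replicate 1), Psmd9 (-0.157 to 0.034, the latter without GF replicate 3), Nfe2l1 (-0.028 without GF+SCFA replicate 2 to 0.061) and Psmb10 (-0.073 to 0.049, the latter without GF+SCFA replicate 1, and 0.00032 without GF replicate 3). For ConvD against GF+SCFA livers they were Psmb1 (-0.063 to 0.013, the latter without ConvD replicate 2, and 0.022 with upper-quartile factors and 0.039 with library totals), Pomp (-0.130 to 0.053, the latter without ConvD replicate 2, and 0.015 and 0.031 with those scalings) and Psmb10 (-0.035 without ConvD replicate 2 to 0.177). For ConvD against GF livers Psmb10 ran from -0.046 without ConvD replicate 2 to 0.166.

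Between ConvD and GF livers 11 members passed with upper-quartile factors and 11 with library totals (5 of the 6 shared in each, with Psmd9 lost and Psma2, Psmc1, Psmc2, Psmc6, Psmd4 and Psme2 gained). Cap calls were then 6 and 6, activator calls 2 and 2 and assembly calls 0 and 0. DESeq2 called 1 cap gene, and the 2 groups alone gave 1 core and 1 cap gene. Between ConvD and GF+SCFA livers the 2 groups alone gave 5 members, 1 of the cap and 1 assembly chaperone. Upper-quartile factors and library totals gave 1 cap gene each, and library totals 1 activator. Between GF+SCFA and GF livers 9 of all genes passed with library totals, 82 with DESeq2 and 24 with no filter, and 0 members in each.

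Without 1 liver, 849 to 1466 genes, 3 to 6 members, 1 to 2 core, 0 to 2 cap, 1 to 2 activator and 0 to 1 assembly genes passed between ConvD and GF livers. Between ConvD and GF+SCFA livers these were 1383 to 2393 genes, 2 to 4 members, 1 core, 0 to 1 cap, 1 to 2 activator and 0 to 1 assembly genes. Between GF+SCFA and GF livers 0 to 173 genes and 0 members passed. The causes were not tested.

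The labels number the livers 1 to 3 in each group. Deviations of same-numbered livers from their group means correlated at -0.085 to 0.213 over genes (9 pairs), and other pairs at -0.146 to 0.150 (18 pairs). The value of 0.213 was that of GF replicate 3 with GF+SCFA replicate 3. Of 9 livers, 5 correlated best with a liver of their own number. Whether same-numbered livers shared a batch was not tested. With a replicate block 6 members passed between ConvD and GF livers, 0 between GF+SCFA and GF livers, and 4 between ConvD and GF+SCFA livers, where 1 assembly chaperone, Psmd9 (adjusted p = 0.0435), was added.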
